A study of Homo sapiens with 4 samples.

Results

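The genes described here encode the proteins of the cytosolic ribosome. They were taken from the array's annotation by name: RPL, RPS or RPLP and a number with at most 1 further letter (A, L or X), with RPSA and FAU added. Pseudogenes, the RPS6K kinases and RPS27L were left out. Of 81 protein-coding genes of this kind in the gene table, 72 had a named probe, 46 of the large and 26 of the small subunit. Of these, 70 (44 large, 26 small) had a probe detected at p under 0.05 on 2 or more of the 4 arrays, among 11311 genes that met the same condition. A detection p is the chance of a signal as high from a negative control of the same array. The 2 named genes that did not meet it were RPL10, whose 2 probes were not detected on any array, and RPL3L, the counterpart of RPL3 in striated muscle. The genes without a named probe were not analysed here.

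The cells were MDA-MB-468, an established human breast cancer line. There were 2 arrays of wild type cells and 2 of cells with mH2A1.2 knocked out, with no other treatment named. mH2A1.2 is a splice form of the histone variant macroH2A1, made from the gene MACROH2A1. The labels do not say whether the knockout is 1 clone, nor whether replicates are separate cultures. The p-values therefore rest on the spread among these 4 samples alone, and that spread may be technical.

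A cytosolic ribosome holds a single copy of almost every one of its proteins, so their messages are made in similar amounts and are among the most abundant of any growing cell. The small subunit reads the message and the large subunit joins the amino acids. Most of these messages begin with a C followed by an unbroken run of pyrimidines, the 5′ terminal oligopyrimidine (TOP) motif, through which mTOR signalling and the protein LARP1 set their translation. This control acts on translation and message stability more than on transcription, and an array of total RNA reads only the amount of message.

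The starts of the genes that the results turn on are shown for this motif. RefSeq promoter sequences (GRCh38.p14) were matched by symbol for 59 of the 70 genes. Each line gives 60 bases on the gene's own strand, 5′ to 3′, of which 40 lie before the annotated transcription start and 20 from it onward. Where a gene had several listed starts, the start with the longest run of C or T near it is shown. Capitals mark the longest run of C or T that touches the 20 bases on either side of the start, where it has at least 8 bases. RPS7 and RPL36A had low knockout values on both arrays, RPL22 and RPL13 high ones, RPL29, RPS21 and RPL28 differed on 1 knockout array, and RPS12 and RPL41 were bright and nearly level. RPL3, the gene with the smallest p among those higher in knockout, has a longest run of 5 bases and so no capitals. RPL10L, a testis counterpart of RPL10, is printed as a member without such a run.
RPS7 (chr2:3575220-3575279, plus strand): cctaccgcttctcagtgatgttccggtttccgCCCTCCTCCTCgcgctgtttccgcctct
RPL36A (chrX:101390971-101391030, plus strand): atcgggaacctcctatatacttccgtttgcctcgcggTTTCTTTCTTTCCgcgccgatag
RPL29 (chr3:51995876-51995935, minus strand): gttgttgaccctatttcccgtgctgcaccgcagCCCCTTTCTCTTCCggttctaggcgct
RPS21 (chr20:62387063-62387122, plus strand): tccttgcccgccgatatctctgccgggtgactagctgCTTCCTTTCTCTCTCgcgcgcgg
RPL22 (chr1:6199576-6199635, minus strand): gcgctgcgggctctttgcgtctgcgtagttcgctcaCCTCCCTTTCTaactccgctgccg
RPL13 (chr16:89560642-89560701, plus strand): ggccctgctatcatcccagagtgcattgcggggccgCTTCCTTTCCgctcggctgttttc
RPL28 (chr19:55385892-55385951, plus strand): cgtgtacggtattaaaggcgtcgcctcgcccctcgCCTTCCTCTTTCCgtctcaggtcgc
RPS12 (chr6:132814529-132814588, plus strand): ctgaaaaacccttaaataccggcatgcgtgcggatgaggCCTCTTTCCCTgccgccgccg
RPL41 (chr12:56116593-56116652, plus strand): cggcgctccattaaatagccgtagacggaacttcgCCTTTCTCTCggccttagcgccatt
RPL3 (chr22:39319604-39319663, minus strand): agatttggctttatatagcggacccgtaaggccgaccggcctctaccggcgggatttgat
RPL10L (chr14:46651762-46651821, minus strand): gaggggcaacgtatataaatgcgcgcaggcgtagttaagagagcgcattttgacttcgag

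Pyrimidine runs were common at the starts of these genes. At the first listed start of each gene, a run of at least 8 bases was present in 50 of 59 ribosomal protein genes (84.7%), with a median longest run of 12 bases. Over all 27305 genes of the table the share was 21.7% and the median 5 bases, and among 69 mitochondrial ribosomal protein genes the share was 14.5%. The annotated start itself was a C in 76.3% of the ribosomal protein genes and 15.0% of all genes. Taking the longest run over all starts of a gene, the 52 genes with a run of at least 8 bases had a median difference of -0.02 between knockout and wild type on the log2 scale, in a range from -1.03 to 0.61. The 7 with a shorter run had a median of -0.05, in a range from -0.10 to 0.38. This is a description of sequence letters at annotated starts and shows no binding or control.

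Facts of the arrays that bear on these genes are few. Knockout replicate 2 stood apart: of the 11311 genes, 1547 and 1185 were over 2-fold from their values on wild type replicates 1 and 2, against 377 and 416 for knockout replicate 1. Among the ribosomal protein genes those counts were 4 and 3 for knockout replicate 2 and 0 and 0 for knockout replicate 1. MACROH2A1 lay lower in knockout at its brightest probe, by 0.78 ± 0.14 with a limma adjusted p of 0.130, and by 1.03 at a second probe. Another probe lay higher (0.78) and the mean of the kept probes differed by -0.34 (adjusted p = 0.317), so the probes check the labels only in part. The epithelial genes EPCAM, KRT8, KRT18, KRT19 and KRT7 were detected on all arrays and CDH1 on none. Of the basal breast genes with a probe, EGFR was detected on all arrays, and KRT5, KRT14 and CDH3 on none. Summed signal of 7 leukocyte markers was 497 and 540 on the wild type arrays against 592 and 836 on the knockout arrays. PTPRC and CD3E were detected on no array, and the 3 kept, CD14, LAPTM5 and CORO1A, differed by 1.27, 0.46 and 0.14 (log2 of knockout over wild type). For 9 fibroblast markers the summed signal was 579 and 552 against 629 and 697. COL3A1 and LUM were detected on none, and the 3 kept, PDGFRB, COL1A1 and DCN, differed by 1.09, 0.27 and -0.0004. For 6 epithelial markers the summed signal was 3504 and 3951 against 6841 and 6857, with 5 of the 6 kept. These 5, KRT19, KRT8, KRT7, EPCAM and KRT18, differed unevenly, by 2.23, 0.51, 0.35, 0.08 and -0.11. These sums were higher on both knockout arrays, and their part in the results below was not tested.

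The ribosomal protein probes gave bright signals. Their median normalized log2 signal was 13.76, against 7.79 over all genes tested, and 45 of the 70 lay at 13 or above, where 170 genes lay in all. They held 8.03% to 8.27% of the summed normalized signal of the genes tested on each array. The highest raw member signal was 21505 to 23535 on the 4 arrays, against an array maximum of 24578 to 25606. A probe's brightness also depends on its sequence, so levels of different genes are not ranked as amounts of RNA. Whether the brightest probes were compressed near the top of the scale was not tested. The dimmer probes were a minority: 14 genes lay below 11, among them RPL28 (7.89), RPL37 (7.11) and RPL10L (6.17).

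After quantile normalization, most ribosomal protein messages differed little between knockout and wild type. The median difference (log2 of knockout over wild type) was -0.02 over the 70 genes and -0.01 over all genes tested. The median absolute difference was 0.08, against 0.23 over all genes. Here and below, ± is the standard error of limma's fit to 2 arrays per group. Within the groups, the median absolute difference of these genes was 0.09 between the wild type arrays and 0.10 between the knockout arrays, though these compare single arrays and the difference between groups compares means of 2. In 42 of the 70 genes (60.0%) the difference was within 0.1 either way, against 26.9% of all genes, and in 60 it was within 0.25, against 52.4%. The 125 other genes with a log2 signal of 13 or more were nearer to this than all genes were, with a median absolute difference of 0.11 and 44.8% within 0.1. The 45 ribosomal protein genes of that brightness had 0.06 and 71.1%, and the 14 below 11 had 0.24 and 21.4%.

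These small differences rest on the normalization. Cyclic loess and the authors' values gave similar counts, with 38 and 37 of the 70 genes within 0.1 and medians of 0.03 and 0.04. Scaling the arrays to equal medians, which moved the median of all genes to 0.12, gave the ribosomal protein genes a median of 0.25. Then 9 of the 70 lay within 0.1, against 25% of all genes, and the median absolute difference was 0.27 against 0.25 over all genes, so the narrower spread of the members around zero did not hold there. Their median absolute distance from the median of all genes was then 0.16. Whether the level of these messages shifted as a whole by that amount depends on the scaling.

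The precision of 2 arrays in each group allowed only bounds on these small differences. The 95% confidence interval of limma's fit lay wholly within 0.5 of zero on the log2 scale for 44 of the 70 genes, 25 of the large and 19 of the small subunit, or 62.9% against 25.6% of all genes. It lay within 1 of zero for 65, or 92.9% against 70.3% of all genes. The counts within 0.5 were 42 under cyclic loess (25% of all genes), 37 on the authors' values (17.9%) and 0 under median scaling, where 1.10% of all genes had such an interval. The median half-width was 0.35, so a change of that size or less could not be told from none in a typical member.

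**Figure D1:**
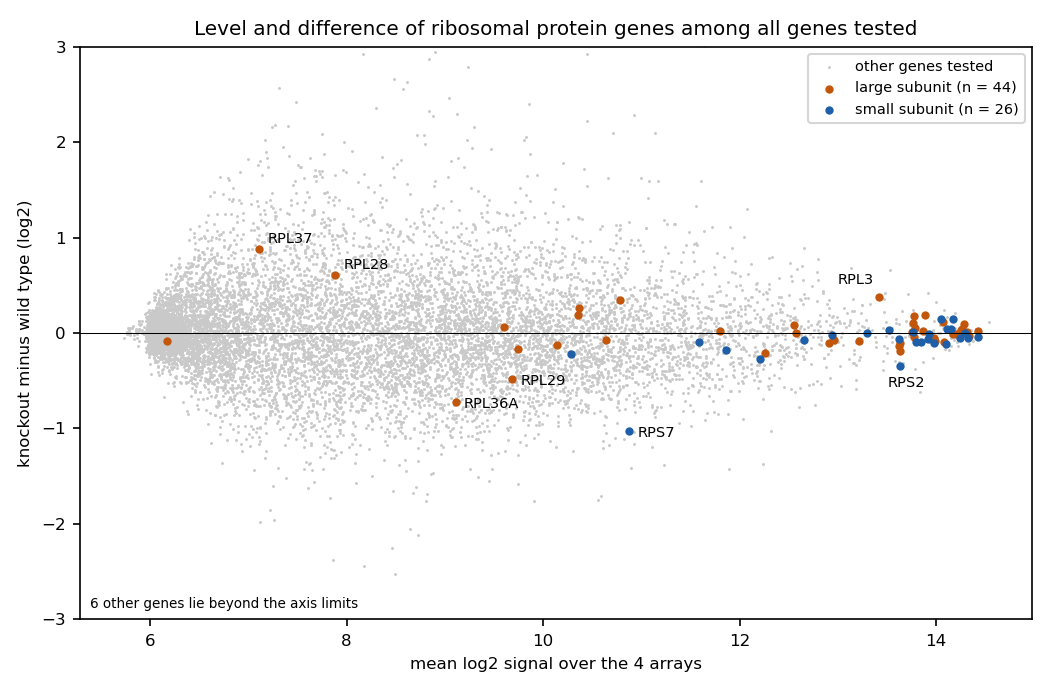
Difference between knockout and wild type (log2, vertical) against mean log2 signal over the 4 arrays (horizontal) for each of the 11311 genes tested, with ribosomal protein genes of the large (orange, n = 44) and small (blue, n = 26) subunit over the other genes (grey). Most of the ribosomal protein genes lie at 13 or above and close to zero, and RPL37 (0.88), RPL28 (0.61), RPL36A (-0.72) and RPS7 (-1.03) are dimmer and lie away from it.

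With quantile normalization and limma's moderated test with Benjamini-Hochberg adjustment, 0 of the 70 genes had an adjusted p under 0.05, as did 0 of the 11311 genes (percent called 0). At an unadjusted p under 0.05 there were 3 genes lower in knockout, RPL36A, RPS2 and RPS7, where 10.5% of all genes were lower. There was 1 gene higher, RPL3, where 9.64% of all genes were higher. In both directions these were 5.71% of the members, against 20.2% of all genes. An exact permutation test of 2 arrays against 2 cannot go below p = 0.333, so none is given. Leaving out knockout replicate 1 gave 5 called members, the 3 lower being RPL29, RPL36A and RPS7 and the others RPL28 and RPL37, where 29.2% of all genes were called. Leaving out knockout replicate 2 gave 0, where 2.76% were called. In those fits the lone knockout array was taken to vary like the wild type pair. Differences over 1.5-fold were seen in 4 of the 70 genes, RPS7, RPL36A, RPL28 and RPL37, or 5.71% against 18.6% of all genes.

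RPS7 encodes a small subunit protein that is needed for maturation of the small subunit RNA and is mutated in some families with Diamond-Blackfan anaemia, an inherited failure of red cell production. Its log2 signals (probe ILMN_1750722) were 11.56 and 11.22 for wild type and 10.85 and 9.88 for knockout. Each knockout array lay below each wild type array, knockout replicate 2 by far the lower, and the wild type arrays themselves differed by 0.33. The difference was -1.03 ± 0.37 (95% interval -2.04 to -0.01), or 2.04-fold lower (limma unadjusted p = 0.0481, adjusted p = 0.244). It was -0.54 without knockout replicate 2 and -1.51 without knockout replicate 1, the latter with a limma adjusted p of 0.00854. Its second probe gave 11.31 and 10.97 against 10.76 and 9.62, a difference of -0.96 ± 0.43.

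RPL36A, on the X chromosome, encodes a large subunit protein that lies near the site where spent transfer RNA leaves the ribosome. Its kept probe (ILMN_2112811) gave log2 signals of 9.41 and 9.53 for wild type and 8.93 and 8.57 for knockout. The knockout arrays lay below wild type by more than the gap between replicates of either group. The difference was -0.72 ± 0.17 (95% interval -1.19 to -0.26), or 1.65-fold lower (limma unadjusted p = 0.0121, adjusted p = 0.160), and without knockout replicate 1 the adjusted p was 0.0133. Its other probe had a detection p under 0.05 on only 1 array. RPL36AL, a nearly identical copy on another chromosome that lies outside the naming rule, read 13.54 and 13.54 for wild type and 13.81 and 13.74 for knockout, a difference of 0.24 ± 0.12. Which copy each probe reads is uncertain.

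RPS2 encodes a small subunit protein at the channel where the message enters. Its log2 signals (probe ILMN_2218277) were 13.82 and 13.79 for wild type and 13.53 and 13.39 for knockout. The groups did not overlap and each pair of replicates was close. The difference was -0.35 ± 0.12 (95% interval -0.68 to -0.01), or 1.27-fold lower (limma unadjusted p = 0.0457, adjusted p = 0.239). Under median scaling it was -0.08.

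RPL3 encodes a large subunit protein that reaches toward the centre where peptide bonds form. Its brightest probe (ILMN_2319994) gave 13.24 and 13.21 for wild type and 13.59 and 13.63 for knockout. Again the groups were apart and replicates close. The difference was 0.38 ± 0.12 (95% interval 0.07 to 0.69), or 1.30-fold higher (limma unadjusted p = 0.0275, adjusted p = 0.199). A second probe of nearly the same brightness, annotated to the same transcript record, gave 13.22 and 13.19 against 13.16 and 13.32, with overlapping groups and a difference of 0.04 ± 0.13. The mean of both was 0.21.

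Other large subunit genes with low knockout values showed them on 1 array or by small amounts. RPL29, a small basic protein also known for binding heparin, had log2 signals of 9.99 and 9.86 for wild type, 9.93 on knockout replicate 1 and 8.96 on knockout replicate 2. Only the last value stood apart. The difference of -0.48 ± 0.36 (limma adjusted p = 0.514) was 0.01 without knockout replicate 2 and -0.97 without knockout replicate 1, where its adjusted p was 0.0117. Its second probe, at almost the same brightness, gave 9.95, 9.88, 9.92 and 8.98 in the same order, so both probes carry the same low array. RPL21 gave 12.32 and 12.40 against 12.02 and 12.28, a difference of -0.21 ± 0.15. RPL35, near the tunnel through which the new chain leaves, differed by -0.13 ± 0.12, and RPL8, which helps form the peptide-joining centre, by -0.19 ± 0.20 with overlapping groups. Under median scaling RPL21, RPL35 and RPL8 turned to 0.01, 0.12 and 0.08. None of these 4 had an unadjusted p under 0.05.

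On the higher side in the large subunit, RPL22 and RPL13 had separate groups. RPL22, an RNA-binding protein that mice can live without, gave 10.73 and 10.49 for wild type and 10.93 and 10.97 for knockout, a difference of 0.34 ± 0.14 (limma unadjusted p = 0.0701). Its paralog RPL22L1, outside the naming rule, gave 6.76 and 6.68 against 6.46 and 6.08, a difference of -0.45 ± 0.17 (limma unadjusted p = 0.0585). In mice RPL22 is known to restrain the message of that paralog. The paralog's probe was dim, near background on knockout replicate 2 (6.08), and a link between these genes was not tested here. RPL13, mutated in a skeletal dysplasia, gave 10.18 and 10.29 against 10.47 and 10.53, a difference of 0.27 ± 0.12, and its dimmer probe -0.10 ± 0.42.

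RPL28 and RPL37 had the largest positive differences, and in both the value came from knockout replicate 2. RPL28 gave 7.55 and 7.62 in wild type, 7.70 on knockout replicate 1 and 8.68 on knockout replicate 2. Its difference was 0.61 ± 0.36 (limma adjusted p = 0.422), which became 0.11 without knockout replicate 2. RPL37, named because its difference exceeded 1.5-fold and so chosen after its values were seen, gave 6.82 and 6.52 against 6.72 and 8.37. Its difference was 0.88 ± 0.59 with overlapping groups, and its other probe had a detection p under 0.05 on only 1 array. Both are dim probes for genes whose proteins are stoichiometric parts of the large subunit.

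In the small subunit, RPS21, RPS23 and RPS26 had knockout values below wild type by small amounts. RPS21 gave 12.36 and 12.33 for wild type and 12.29 and 11.86 for knockout, a difference of -0.27 ± 0.19 that was -0.05 without knockout replicate 2. RPS23, which helps keep decoding accurate, gave 10.36 and 10.42 against 10.22 and 10.13, a difference of -0.22 ± 0.12. RPS26, which touches the message where it leaves the subunit, differed by -0.18 ± 0.13, or 0.03 under median scaling. Under median scaling RPS21 and RPS23 were at -0.05 and -0.03. Some genes read higher in knockout. RPS15A gave 14.01 and 13.93 against 14.12 and 14.13, a difference of 0.15 ± 0.12, with 0.15 to 0.18 over its 3 probes. RPS19, the gene most often mutated in Diamond-Blackfan anaemia, gave 14.09 and 14.10 against 14.31 and 14.17, a difference of 0.14 ± 0.12. RPS10, RPS16 and RPS3A differed by 0.04, 0.04 and 0.03. Under median scaling these 5 genes differed by 0.28 to 0.47. None of these 8 genes had an unadjusted p under 0.05.

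The genes with the brightest probes differed by little after quantile normalization. In the large subunit RPL41, the shortest of these proteins, gave 14.43 and 14.40 for wild type and 14.47 and 14.41 for knockout, and RPL18 and RPL27A differed by -0.03 ± 0.14 and 0.01 ± 0.12. In the small subunit RPS12 gave 14.52 and 14.37 against 14.39 and 14.41, RPS25 differed by -0.05 ± 0.11, and RPS27 gave 14.28 and 14.31 in both groups, a difference of 0.00 ± 0.12. Under median scaling all 6 were positive, from 0.28 to 0.35. With quantile normalization the intervals of all 6 lay within 0.5 of zero.

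Members with a role of their own also differed by little after quantile normalization. RPL5 and RPL11, which with the smallest ribosomal RNA can bind and block MDM2, the ligase that degrades p53, differed by -0.07 ± 0.13 and 0.09 ± 0.12. RPS6, the substrate of the S6 kinases downstream of mTOR, gave 13.93 and 13.96 for wild type and 13.92 and 13.86 for knockout, a difference of -0.06 ± 0.12. RPLP1 and RPLP2, acidic proteins of the stalk that recruits elongation factors, differed by -0.10 ± 0.13 and 0.11 ± 0.13. FAU, which encodes a ubiquitin-like protein fused to a small subunit protein, differed by -0.09 ± 0.12. Under median scaling these 6 ran from 0.13 to 0.42. Of the 2 kept tissue-restricted counterparts, RPL39L gave 10.23 and 10.29 against 10.50 and 10.40, a difference of 0.19 ± 0.12 with 0.19 at its second probe, and RPL10L stayed near background at 6.12 and 6.31 against 6.09 and 6.18. None of these 8 genes had an unadjusted p under 0.05.

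**Figure D2:**
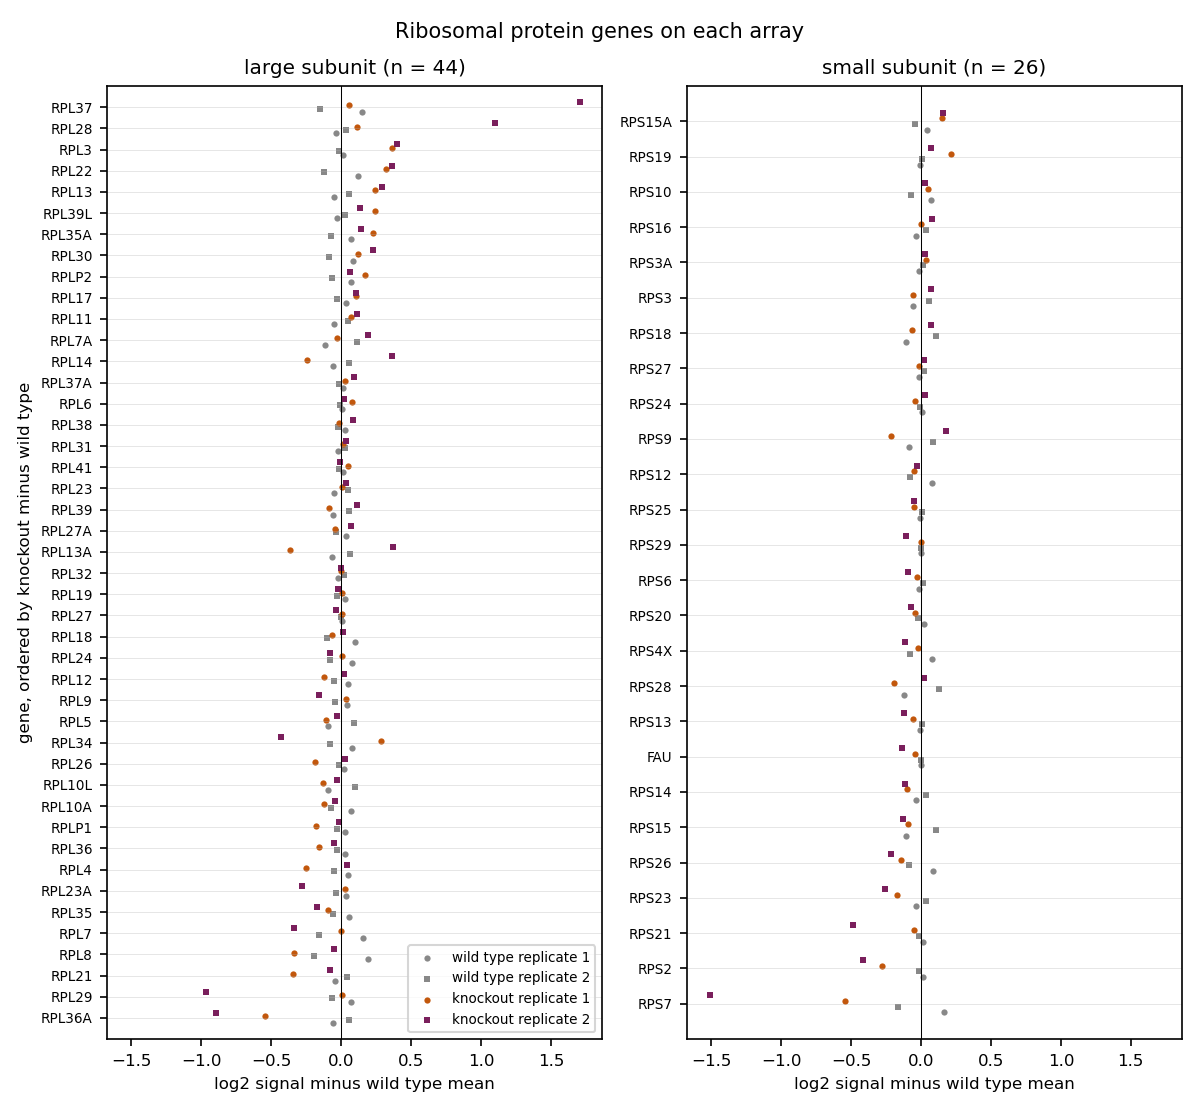
Log2 signal of each ribosomal protein gene on each of the 4 arrays, minus that gene's wild type mean (horizontal), for the large (left, n = 44) and small (right, n = 26) subunit, with genes ordered by their difference (vertical); grey marks wild type and colour marks knockout. Most rows are narrow, and the values of RPL37, RPL28, RPL29, RPS21 and RPS7 on knockout replicate 2 lie well away from the others of their rows.

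The 2 subunits were compared next. The median difference was 0.00 for the large subunit and -0.06 for the small subunit, a gap of 0.06. On single arrays, the median deviation of large subunit genes from their own means over the 4 arrays, minus that of small subunit genes, was -0.01 and -0.06 for wild type and 0.02 and 0.06 for knockout. The wild type and knockout values of this gap did not overlap. They come from the same 4 arrays as the gap of 0.06, so they are no separate support for it, and replicates of each group also differed. The size of the gap depended on which probes were used, with 0.03 for the mean of kept probes per gene and 0.0049 with every kept probe counted. It was 0.08 under median scaling, under cyclic loess and on the authors' values.

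Genes whose knockout values both lay below their wild type values numbered 15, 4 of the large and 11 of the small subunit. That is 21.4% of the members, against 28.2% of all genes. In the other direction there were 14, 11 large and 3 small, where the share over all genes was 25.9%. The small subunit genes below were FAU, RPS13, RPS14, RPS2, RPS20, RPS21, RPS23, RPS25, RPS26, RPS6 and RPS7, and 8 of these 11 differed by less than 0.25. The large subunit genes above were RPL11, RPL13, RPL17, RPL22, RPL28, RPL3, RPL30, RPL35A, RPL37A, RPL39L and RPL6. These counts moved with the scaling. Scaling to equal medians gave 2 below and 39 above, where the shares over all genes were 10.7% and 34%. Cyclic loess gave 11 and 24, against 26.8% in each direction, and the authors' values 7 and 24, against 26.1% and 27.9%. Relative to the median of all genes, large and small subunits lay at 0.01 and -0.05 under quantile normalization and at 0.17 and 0.09 under median scaling.

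Probes of the same gene were set against each other in differences, not levels. Of the 118 probes 113 were kept, and 31 genes had at least 2 kept probes. In 19 of the 31 all probes differed in the same direction and in 12 they did not, and in 8 of those 12 every probe lay within 0.25 of zero. In 0 of the 31 did probes lie over 0.25 on both sides of zero. The range of differences within a gene had a median of 0.10 and was under 0.25 in 22 genes. With every kept probe tested, 4 were lower and 2 higher at an unadjusted limma p under 0.05, that is 6 of 113 against 18.7% of all kept probes in either direction, and 0 had an adjusted p under 0.05. Knockout lay wholly below wild type at 27 of these 113 probes and above at 18, where the shares over all kept probes were 27.2% and 25%.

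The range exceeded 0.5 in 4 genes, and in each the probe that stood apart was the dimmest. For RPL41 it gave 8.23 and 8.17 for wild type and 7.39 and 7.49 for knockout, a difference of -0.76 ± 0.12 (limma unadjusted p = 0.0026, adjusted p = 0.136), where the bright probe differed by 0.02. For RPS15 it gave 10.24 and 10.18 against 9.91 and 9.09, a difference of -0.71 ± 0.30, where the others differed by -0.11 and -0.03. For RPL17 it gave 10.92 and 10.55 against 11.18 and 11.73, a difference of 0.72 ± 0.25, and is annotated to another transcript record than the other probes, which differed by 0.10 and 0.03. For RPS29 it gave 7.81 and 7.72 against 7.46 and 9.51, a difference of 0.72 ± 0.72 carried by knockout replicate 2. Of 23 kept probes below a log2 signal of 10, 10 differed by over 0.25, and of 61 probes at 13 or above, 2 did.

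**Figure D3:**
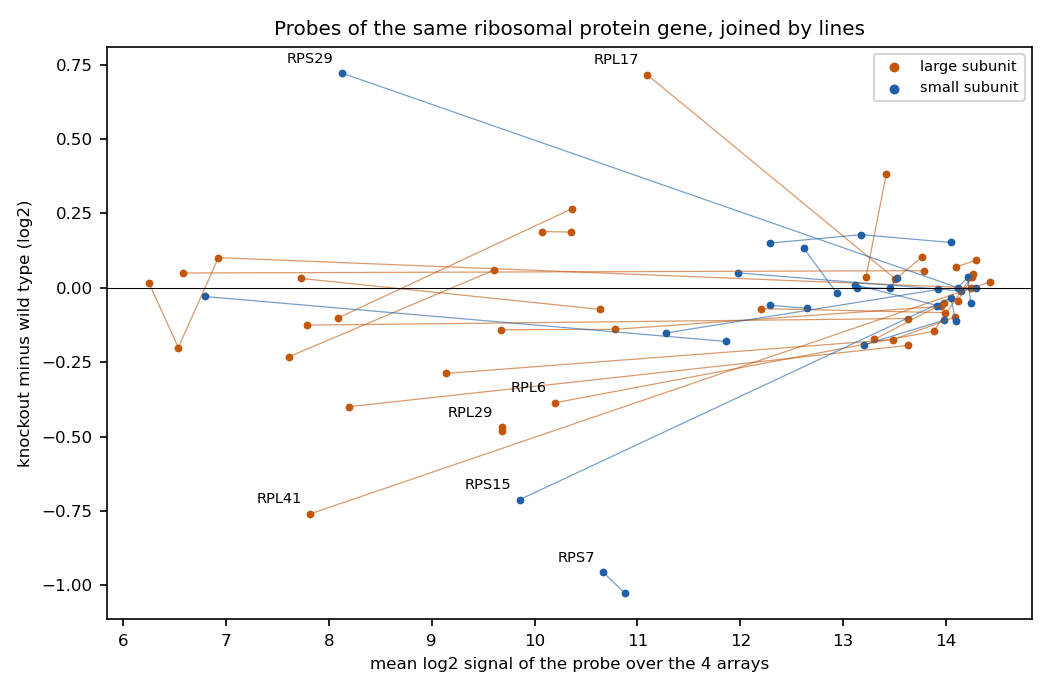
Difference between knockout and wild type (log2, vertical) against mean log2 signal (horizontal) for every kept probe of the 31 ribosomal protein genes with at least 2, with lines joining probes of the same gene. Most bright probes sit near zero, with 1 of the 2 bright RPL3 probes at 0.38, the pairs of RPS7 and RPL29 lie close together, and the dimmest probes of RPL41, RPS15, RPL17 and RPS29 lie far from their partners.

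Related genes were read from the same fit, with lists beside those of the ribosomal proteins. The list of chaperones and importers lay lower: all 13 measured differences were negative, with a median of -0.40. Taken array by array, knockout replicate 1 lay at -0.21 and knockout replicate 2 at -0.59. The list is not limited to escorts of single ribosomal proteins, and holds importers such as IPO5, IPO7 and TNPO1. At an unadjusted p under 0.05, 6 of 13 were lower, where 10.5% of all genes were, and 0 higher, and 0 passed over all genes. Under median scaling 11 of 13 were negative, with a median of -0.20. AAMP gave 8.74 and 8.80 for wild type and 8.18 and 8.16 for knockout, a difference of -0.60 ± 0.12 (limma adjusted p = 0.137). TSR2, the escort of RPS26, differed by -0.65 ± 0.14, and PDCD2L, a relative of the RPS2 escort PDCD2, by -0.60 ± 0.15. GRWD1, the escort of RPL3, gave 10.23 and 10.23 against 9.58 and 8.41, a difference of -1.24 ± 0.42, and was chosen after its values were seen. RPL3 itself had the positive difference given above. RSL1D1 and NAP1L4, also chosen after their values were seen, differed by -0.66 ± 0.17 and -0.40 ± 0.12.

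Mitochondrial ribosomal proteins, encoded in the nucleus and built into a separate ribosome, spread more widely around zero than the cytosolic ones after quantile normalization. Their 76 measured genes had a median difference of -0.21 and a median absolute difference of 0.25, against 0.23 over all genes. They were also dimmer, with a median log2 signal of 10.18 against 13.76 for the cytosolic members. The 14 cytosolic members below 11 had a median absolute difference of 0.24, so the wider spread was not seen against members of lower signal. At an unadjusted p under 0.05 there were 12 lower and 2 higher, where the shares over all genes were 10.5% and 9.64%, and 0 passed over all genes. In 37 (48.7%) both knockout arrays lay below wild type and in 12 (15.8%) above, against 28.2% and 25.9% of all genes. Under median scaling their median was -0.01, with 40 negative and 36 positive. The 3 with the smallest p were MRPL44, MRPS26 and MRPL23. MRPL44 gave 8.54 and 8.53 for wild type and 7.58 and 7.63 for knockout, a difference of -0.94 ± 0.12 (limma adjusted p = 0.122). MRPS26 differed by -0.73 ± 0.14 and MRPL23 by 0.63 ± 0.13. Knockout replicate 1 had a median of -0.03 and knockout replicate 2 of -0.31. No test of the difference between the mitochondrial and cytosolic lists was made.

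Other messages of the translation apparatus had medians nearer to that of the ribosomal proteins. Of 16 other messages known to carry the TOP motif the median difference was 0.01, with 8 within 0.1 either way. Under median scaling that median was 0.23. FBL, the methyltransferase of the box C/D particles that modify ribosomal RNA, was the 1 with an unadjusted limma p under 0.05. That is 6.25% of the list, against 20.2% of all genes in either direction. FBL gave 12.01 and 12.10 for wild type against 11.59 and 11.55 for knockout, a difference of -0.48 ± 0.12. TPT1 differed by 0.21 ± 0.14 and PABPC1, the poly(A)-binding protein, by -0.18 ± 0.14. The 8 elongation factors had a median of 0.11, or 0.34 under median scaling. Their spread was wide, with 1 within 0.1 either way (12.5%, against 26.9% of all genes). Differences over 1.5-fold were seen in 2 of the 8 (25%, against 18.6% of all genes). EIF5A2, near background in wild type, differed by 0.71 ± 0.22 (limma unadjusted p = 0.0285) and EIF5A by -0.25 ± 0.14. EIF5A2 was the 1 of the 8 with an unadjusted p under 0.05, or 12.5% against 20.2% of all genes. EEF1A2, the form of muscle and nerve, was detected on the knockout arrays only, at 5.96 and 5.96 against 6.11 and 7.19, and no fold is given. EEF1A1, the form of most cells, differed by 0.11 ± 0.12.

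Of 13 subunits of initiation factor 3, which holds the small subunit ready for the message, 10 had negative differences, with a median of -0.12. Under median scaling 4 were negative and the median was 0.05. This list shares EIF3E, EIF3F, EIF3H and EIF3L with the other TOP messages above. EIF3J, a loosely bound subunit, gave 9.97 and 9.73 for wild type and 9.38 and 8.72 for knockout, a difference of -0.80 ± 0.27 (limma unadjusted p = 0.0379). EIF3K and EIF3A differed by -0.32 ± 0.13 and -0.29 ± 0.13. The 13 regulators of TOP messages had a median of -0.12, or 0.08 under median scaling. EIF4EBP1, the translation repressor that mTOR switches off, gave 7.15 and 7.19 against 6.78 and 6.69, a difference of -0.43 ± 0.12 (limma unadjusted p = 0.0203), MTOR itself differed by -0.42 ± 0.16 and EIF4EBP2 by -0.37 ± 0.19. In these 2 lists 1 gene each was lower (7.69%) and 0 higher at an unadjusted p under 0.05, against 10.5% and 9.64% of all genes. Of 5 relatives outside the naming rule 0 had an unadjusted p under 0.05, with RPS27L at -0.24 ± 0.12, RPL7L1 at -0.17 ± 0.12 and RPL26L1 at -0.07 ± 0.17 beside RPL36AL and RPL22L1 above.

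**Figure D4:**
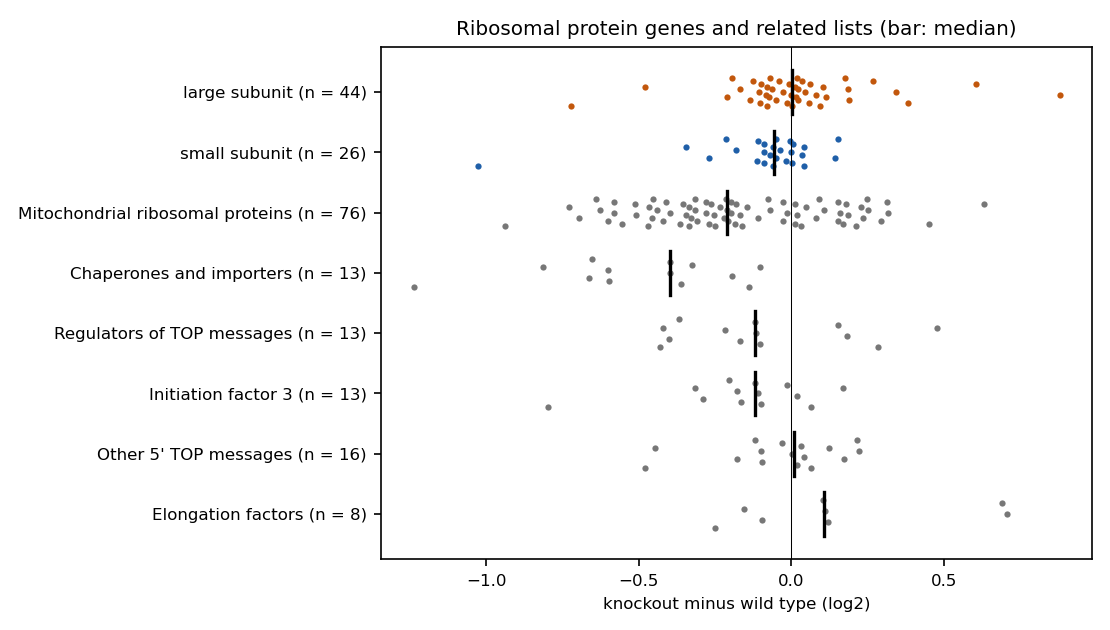
Difference between knockout and wild type (log2, horizontal) for each gene of the 2 ribosomal subunits and of 6 related lists (rows), 1 point per gene at its brightest kept probe, with a black bar at each list's median. Values are after quantile normalization. EIF3E, EIF3F, EIF3H and EIF3L belong to both the initiation factor 3 list and the list of other TOP messages and are plotted in each. The large and small subunits cluster at medians of 0.00 and -0.06, and the chaperones and importers all lie below zero with a median of -0.40 (11 of 13 under median scaling).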

How the data were processed

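RNA of 2 wild type and 2 knockout MDA-MB-468 samples was hybridised to Illumina bead arrays on 1 chip. Per the file headers, the deposited table lists a linear signal intensity and a detection p-value for 47230 probes on each array, not normalized between arrays. The authors' deposited processed table of log2 values was used as an alternative. The submitters' processing notes list GenomeStudio without a version. The series has array intensities with no counts, and the number of arrays limits the precision.

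Signals were corrected with limma's normexp method (offset 16, negative controls inferred from detection p), put on the log2 scale and quantile normalized (R 4.3.3, limma 3.58.1). A probe was kept if detected at p under 0.05 on 2 or more arrays (19752 probes). Genes were named through the platform annotation of GEO, with 30082 probes listed, 30074 with 1 symbol and 30035 symbols updated through the gene number with a GRCh38.p14 gene table. Each gene was read at its brightest kept probe. The 2 groups were compared with lmFit and eBayes of limma (two-sided), adjusting by Benjamini-Hochberg over all 11311 genes with a threshold of 0.05. The offset shrinks the folds of dim probes. The fit was tested on simulated data.

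The members, the related lists and the tests were chosen with earlier results of these data known. Genes named are, in each subunit, the 5 with the smallest p in each direction and the 3 brightest, with RPLP1, RPLP2, RPS6, RPL5, RPL11, FAU, members ending in L, and up to 3 genes of each related list with the smallest p. Alternatives were the background correction, the normalization, the offset, the detection filter, the authors' values, the use of probes, an intensity trend, the replicate block, the symbols as given, and each array left out.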

Additional observations from a re-analysis of the deposited data

How the results depend on the processing

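Over 16 alternatives, 16 of 33 named genes kept the sign of their difference, and 0 ribosomal protein genes were called by limma in all but 1. With 1 array left out calls ran from 0 to 5, the 5 without knockout replicate 1 (RPL28, RPL29, RPL36A, RPL37 and RPS7, 7.14% of members where 29.2% of all genes were called). Genes with groups apart then ran from 22 to 30 lower and from 19 to 27 higher, since a lone array separates more easily. These were 31.4% to 42.9% and 27.1% to 38.6% of the members. Over all genes the shares were 37.0% to 42.7% lower and 32.5% to 42.8% higher. MACROH2A1 then ran from -0.88, with an adjusted p of 0.0132, to -0.68, RPL18 from -0.13 to 0.072, RPS12 from -0.11 to 0.037, RPL27A from -0.047 to 0.070, RPS10 from -0.028 to 0.11, RPL5 from -0.16 to 0.022, RPL10L from -0.18 to 0.015, RPL41 from -0.012 to 0.052 and RPL29 from -0.97 to 0.0072. Scaling to equal medians gave medians of 0.29 (large) and 0.21 (small), 2 genes apart lower and 39 higher, and turned RPL21 (0.011), RPL35 (0.12), RPL8 (0.082), RPL18 (0.31), RPS26 (0.033), RPS12 (0.29), RPS25 (0.28), RPLP1 (0.23), RPS6 (0.22), RPL5 (0.13) and FAU (0.19). Cyclic loess gave 0.056 and -0.020 with 24 apart higher, and turned RPL18 (0.058), RPS12 (0.043) and RPS25 (0.028). The authors' values gave 0.075 and -0.0037 with 7 lower and 24 higher, and turned RPL18 (0.076), RPS12 (0.060), RPS25 (0.044) and RPLP1 (0.0020). The mean of probes turned RPL41 (-0.37). Every probe as a feature gave -0.027 and -0.032 with 27 of 113 probes, not genes, apart lower. The causes were not tested.

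With the replicate number as a block, 0 of the 70 ribosomal protein genes and 0 of the 11311 genes had a limma adjusted p under 0.05. The deviations of same-numbered arrays from their group means correlated at 0.44 over all genes and 0.18 over the members. With only 2 pairs and no shared batch or day named in the labels, this does not settle whether the numbers pair the samples. Depth does not apply to arrays, and signals near background, as at RPL10L, bound what can be seen.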

Other observations

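Probes annotated to ribosomal protein pseudogenes, which the rule left out, were in some cases bright. RPL13AP5 read 14.49 and 14.46 for wild type and 14.38 and 14.50 for knockout, a difference of -0.04 ± 0.12 (standard error, 2 arrays per group), and a second of its probes differed by 0.04 ± 0.11. RPSAP9 read 14.40 and 14.38 against 14.21 and 14.33, a difference of -0.12 ± 0.12, where the parent RPSA was not analysed here. RPL13AP20, RPL13AP3 and RPL19P12 differed by -0.07, 0.01 and 0.05, and the 2 probes of RPL21P28 by -0.18 each, beside -0.21 for RPL21. RPS26P11 differed by -0.11 beside -0.18 for RPS26, and probes of RPL13P5 by 0.19 and 0.07 beside 0.27 for RPL13. Others differed in sign from the parent. Kept probes of RPL23AP87, RPL23AP64, RPL23AP7 and RPL23AP32 ran from 0.03 to 0.54, and RPL23AP53 differed by -0.06, beside -0.12 for RPL23A. Processed pseudogenes are close copies of spliced messages, and whether these probes read the parent message was not tested.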
